A study of Homo sapiens with 24 samples.

Results

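Matrix metalloproteinases and their inhibitors were examined in RNA-seq of HEK293T cells, a human embryonic kidney cell line, that differed in the histone methyltransferase SETD2. The 9 genes were chosen by name, out of 58884 listed, and comprise 2 secreted MMPs (MMP2 and MMP11), 3 membrane-type MMPs (MMP14, MMP15 and MMP24), 3 tissue inhibitors of metalloproteinases (TIMP1, TIMP2 and TIMP3) and the membrane-anchored inhibitor RECK. The first of 2 tables held 2 untreated wild-type (WT) and 2 untreated SETD2 knockout (KO) libraries. The second table held 2 untreated KO libraries, 2 of KO cells rescued with full-length SETD2 (SETD2 FL) and 2 of KO cells rescued with residues 1404 to 2564 of SETD2 (SETD2 C, labelled N3), with RNA taken 72 h after transfection of the constructs. Both constructs were driven by a CMV promoter, both alleles of SETD2 are disrupted in the KO cells, and the KO libraries are described as untreated, so the SETD2 construct and the transfection cannot be told apart in comparisons of SETD2 FL or SETD2 C with KO. All rescued cells carry the KO background.

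MMPs are zinc-dependent proteases that cut collagens, gelatin, other matrix proteins and proteins at the cell surface. They are made as inactive precursors. Secreted pro-MMP2 is activated at the cell surface by MMP14, with TIMP2 bridging the pair, whereas MMP11 and the membrane-type MMPs carry a furin cleavage site and are activated on the way to the surface. TIMPs bind active MMPs and block them. TIMP1 is a poor inhibitor of the membrane-type enzymes, TIMP3 stays bound to the matrix and also blocks ADAM proteases, and RECK, held in the membrane by a lipid anchor, restrains several MMPs and acts with WNT7 ligands at the cell surface.

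Values are TPM, a measure of transcript abundance, which the authors estimated with RSEM and which is relative to transcript length and to the sum over a library, so levels of different genes can be set side by side but the depth of each library is unknown. For the tests TPM was scaled between the libraries of a table, and a fold change is a difference of log2(scaled TPM + 0.5), which understates the change of low genes. Calls required both a 2-fold change or more and an adjusted p no higher than 0.05 (limma, Benjamini-Hochberg adjustment), and counts at the adjusted p alone are given beside them. SE is the standard error of a log2 fold change. "Rose" and "fell" refer to genes that passed the adjusted p. Nothing in the labels says whether the 2 libraries of a group came from separate cultures, so the p-values measure the spread between libraries, which may be technical.

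Genes with a TPM above 0 numbered 24744 to 25480 per library in the first table and 24306 to 27104 in the second, where the SETD2 C libraries had the most. The SETD2 transcript was not lower in the libraries labelled KO, with a TPM of 16.2 and 16.3 against 12.6 and 14.8 in WT, so this transcript is no check of the labels WT and KO (log2 fold change of WT relative to KO of -0.11, adjusted p = 0.408 from limma). WT and KO below mean the libraries labelled so. In KO of the second table its mean TPM was 12.1, against 431 in SETD2 FL and 1297 in SETD2 C cells. The log2 fold change of SETD2 C relative to SETD2 FL was 1.46 (adjusted p = 7.06e-06 from limma). The constructs differ in length, so their TPM may not be comparable, and the paper reports no significant difference between their mRNA levels. It reports markedly more protein of SETD2 C than of SETD2 FL. The form and the amount of SETD2 therefore cannot be told apart between SETD2 C and SETD2 FL. All 6 genes listed for this cell line (VIM, CDH2, KRT8, KRT18, NEFM and PAX2) were detected in every library. Among them KRT8 (log2 fold change of 1.61) and NEFM (1.20) were called higher with SETD2 C than in KO. Of 6 markers of other cell types, PTPRC, PECAM1, ALB, DCN and COL1A2 stayed at or below a TPM of 0.43 in every library. The fibroblast gene LUM had a TPM of 0.35 and 0.45 in KO and of 1.20 and 1.79 with SETD2 C (log2 fold change of 1.04, adjusted p = 0.00662 from limma). The part of these shifts in the results below was not tested.

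In KO cells of the second table each TIMP was more abundant than any of the MMPs examined, whereas the inhibitor RECK lay among the MMPs. TIMP1 led with a TPM of 209 ± 8.55 (SD, n = 2), followed by TIMP2 at 19.6 ± 0.184 and TIMP3 at 16.4 ± 0.559. MMP15, RECK and MMP2 came next, at 7.22 ± 0.205, 6.98 ± 0.0495 and 6.01 ± 0.106. MMP11 and MMP14 were lower, at 2.51 ± 0.474 and 1.80 ± 0.0778, and MMP24 was close to 0 at 0.09 ± 0.0141. In SETD2 FL cells MMP2 moved above MMP15 and RECK, and the libraries of MMP15 (6.89 and 7.85) and RECK (6.54 and 7.16) overlapped. In SETD2 C cells MMP2 came next after TIMP1 and TIMP2, with both libraries (15.9 and 22.0) above both of TIMP3 (14.5 and 15.2). The order in the first table was similar at its ends, with TIMP1 first and MMP14 and MMP24 last. TIMP2 and TIMP3 overlapped in WT, as did MMP15 and RECK. In WT, MMP2 (5.18 and 6.22) also lay above MMP15 (3.22 and 3.84) and RECK (3.80 and 4.14).

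**Figure D1:**
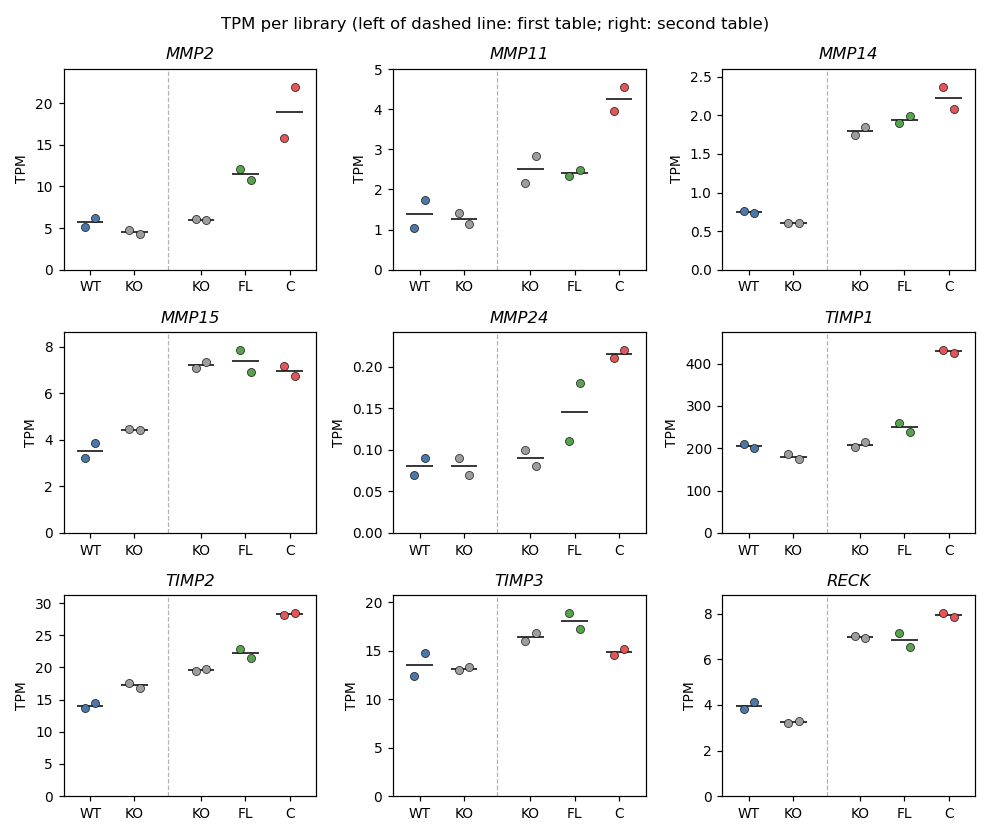
TPM of each of the 9 genes (vertical axes, starting at 0) in each library, by group; points are libraries and bars the mean of 2. TIMP1 and TIMP2 in the 2 SETD2 C libraries lie above every other library of the second table, MMP2 steps up from KO through SETD2 FL to SETD2 C, and TIMP3 is lowest with SETD2 C in that table.

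Of the 9 genes, 8 passed the filter on low TPM (at least 0.5 in at least 2 libraries) in each table, and MMP24 did not pass it in either. With SETD2 C, relative to KO, 4 of the 8 rose (MMP2, MMP11, TIMP1 and TIMP2) and 1 fell (TIMP3) at the adjusted p alone, and MMP2 alone also passed the 2-fold threshold. Over all 15933 genes tested, 21.1% rose and 15.1% fell at the adjusted p alone, in all 36.2%, and 4.06% were called at both thresholds. The 8 had a median log2 fold change of 0.25, against 0.05 over all genes. The comparison of SETD2 C with SETD2 FL gave the same counts, 4 higher and 1 lower, where 21.4% of all genes rose and 16.8% fell (38.2% in all). None of the 8 passed both thresholds there, where 3.78% of all genes did, and 5 had an unadjusted p under 0.05 in limma, as did 48.8% of all genes. Relative to KO the latter shares were also 5 of 8 and 47.1%. These comparisons share the SETD2 C libraries.

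With SETD2 FL, relative to KO, none of the 8 genes passed the adjusted p in limma, as against 0.207% of all genes (0.0816% at both thresholds), and 2 (MMP2 and TIMP1) had an unadjusted p under 0.05, as did 15.9% of all genes. Between WT and KO in the first table none of the 8 passed either, as against 4.48% of all genes (1.36% at both thresholds), and 3 (MMP2, TIMP1 and RECK) had an unadjusted p under 0.05, as did 24.9% of all genes. The 8 had median log2 fold changes of 0.09 and 0.21 in these comparisons, against 0.01 over all genes in both.

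After scaling, both SETD2 C libraries lay above both KO libraries for 6 of the 8 genes and below them for 2 (MMP15 and TIMP3), as they did for 40.5% and 30.8% of all genes. Set against SETD2 FL they lay above for 4 genes and below for 2, where 40.3% and 32% of all genes did. The SETD2 FL libraries lay above KO for 4 genes and below for none, where 24.8% and 23.4% of all genes did. WT lay above KO for 5 genes and below for 2, where 29.4% and 27.4% of all genes did. In bulk RNA, a change in the share of cells that express a gene and a change in RNA per cell cannot be told apart.

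**Figure D2:**
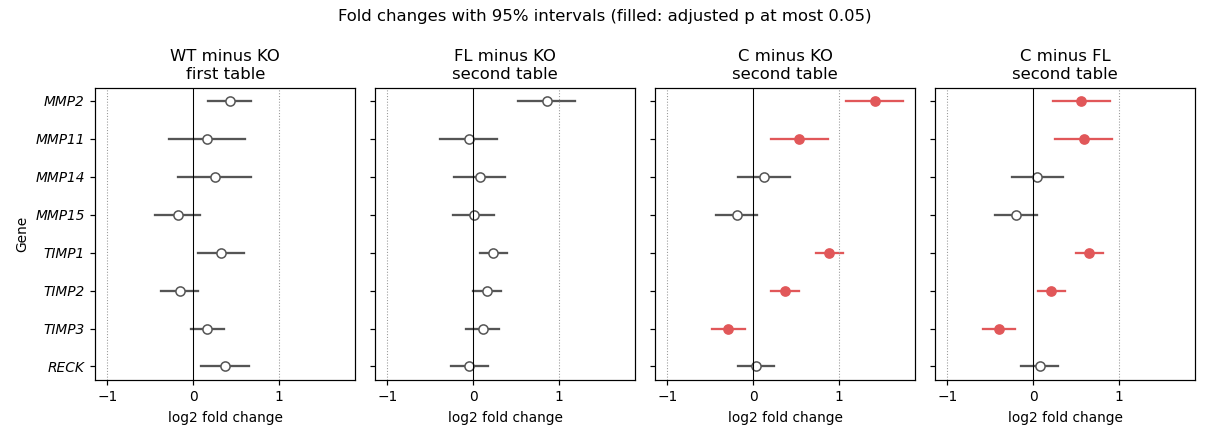
Log2 fold change (horizontal axes) of the 8 tested genes in the 4 comparisons, with 95% intervals from limma; filled points have an adjusted p of at most 0.05 and dotted lines mark a 2-fold change. Filled points appear only where SETD2 C is compared, and MMP2 relative to KO (1.42) is the single one beyond the dotted line.

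MMP2 (ENSG00000087245) encodes gelatinase A, which cuts denatured collagen and the type IV collagen of basement membranes. The gene lies on the plus strand of chromosome 16 (GRCh38) from 55389700 to 55506691, and its reference transcript has 13 exons. MMP2 TPM was 6.08 and 5.93 in the KO libraries, 12.1 and 10.8 in SETD2 FL cells, and 15.9 and 22.0 in SETD2 C cells. The 3 groups did not overlap, and the SETD2 C libraries stood further apart than those of the other groups. MMP2 rose with SETD2 C relative to KO, with a log2 fold change of 1.42 (SE 0.14, adjusted p = 0.000491 from limma), and only 194 of the 15933 genes tested had a larger value. Relative to SETD2 FL it rose by a log2 fold change of 0.56 (SE 0.14, adjusted p = 0.0181 from limma). The latter no longer passed the adjusted p without SETD2 C library 2 (log2 fold change of 0.34) or without SETD2 FL library 4 (0.45). Leaving out SETD2 C library 2 moved the value by over 1.5 times.

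For SETD2 FL relative to KO, the log2 fold change of MMP2 was 0.86 (95% interval of 0.53 to 1.19, adjusted p = 0.0834 from limma), and 66 genes had a larger value. MMP2 passed the adjusted p there in 4 of 15 alternatives and did not pass it in the other 11. The 4 were no scaling (adjusted p = 0.0351 from limma), a fit of only these 4 libraries (adjusted p = 0.041 from limma), and the fits without SETD2 C library 1 or 2. In the first table MMP2 TPM was 5.18 and 6.22 in WT and 4.74 and 4.26 in KO. The log2 fold change of WT relative to KO was 0.43 (95% interval of 0.17 to 0.68, adjusted p = 0.0744 from limma).

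MMP11 (ENSG00000099953) encodes stromelysin-3, a furin-activated protease best known from the stroma around tumours. It lies on chromosome 22 from 23768226 to 23784316 on the plus strand, with 8 exons in its reference transcript. Its TPM was 2.17 and 2.84 in KO, 2.34 and 2.49 in SETD2 FL cells, and 3.95 and 4.56 in SETD2 C cells. The SETD2 FL values lay between those of KO, and both SETD2 C libraries were higher than either. The log2 fold change of SETD2 C was 0.54 relative to KO (SE 0.14, adjusted p = 0.0223 from limma) and 0.59 relative to SETD2 FL (SE 0.14, adjusted p = 0.0147 from limma).

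Whether MMP11 passed the adjusted p depended on the processing. Under quantile normalization the log2 fold changes were 0.32 and 0.39, with an adjusted p of 0.124 and 0.0682 from limma. Without KO library 2 the value relative to KO was 0.37 (adjusted p = 0.115 from limma), and without SETD2 C library 2 it was 0.45 (adjusted p = 0.126 from limma). Against SETD2 FL the adjusted p was 0.0602, 0.0512 and 0.0905 from limma without SETD2 FL library 3, SETD2 FL library 4 and SETD2 C library 2. Among libraries of the first table, MMP11 TPM was 1.04 and 1.74 in WT and 1.41 and 1.13 in KO, which overlapped.

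MMP14 (ENSG00000157227), on chromosome 14 from 22836560 to 22849041 on the plus strand, encodes the membrane-type protease that activates pro-MMP2. Its TPM was 1.74 and 1.85 in KO, 1.90 and 1.99 in SETD2 FL cells, and 2.37 and 2.08 in SETD2 C cells. The groups were separate but close in TPM, and after scaling the SETD2 C and SETD2 FL libraries overlapped. The log2 fold change of SETD2 C relative to KO was 0.13 (95% interval of -0.17 to 0.43, adjusted p = 0.472 from limma), and it was -0.16 under quantile normalization. Compared with SETD2 FL it was 0.05 (95% interval of -0.25 to 0.35), and -0.23 under quantile normalization. In the first table MMP14 TPM was 0.76 and 0.74 in WT and 0.61 and 0.60 in KO, with a log2 fold change of 0.25 (95% interval of -0.17 to 0.68, adjusted p = 0.412 from limma).

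MMP15 (ENSG00000102996), a second membrane-type protease, lies on chromosome 16 from 58025754 to 58046901 on the plus strand. Its TPM was 7.07 and 7.36 in KO, 7.85 and 6.89 in SETD2 FL cells, and 7.17 and 6.72 in SETD2 C cells, and all 3 groups overlapped. The log2 fold change of SETD2 C was -0.19 relative to KO (95% interval of -0.43 to 0.05) and -0.20 relative to SETD2 FL (95% interval of -0.44 to 0.04). Among libraries of the first table, both WT libraries (3.22 and 3.84) were below both KO libraries (4.47 and 4.40), with a log2 fold change of -0.18 (95% interval of -0.44 to 0.08, adjusted p = 0.343 from limma).

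MMP24 (ENSG00000125966), a membrane-type protease of the nervous system, lies on chromosome 20 from 35226690 to 35276998. Its TPM was 0.07 to 0.09 in the 4 libraries of the first table. In the second table it was 0.1 and 0.08 in KO, 0.11 and 0.18 in SETD2 FL cells, and 0.21 and 0.22 in SETD2 C cells. With no filter beyond a TPM above 0 the log2 fold change of SETD2 C relative to KO was 0.24 (adjusted p = 0.0863 from limma). The opposite-strand gene MMP24OS spans all 9 exons of MMP24 and had a TPM of 33.4 to 45.3 in the second table. Whether the counting used strand is not given in the sources used here, and without strand, reads of the pair could not be told apart, so the values of MMP24 are uncertain.

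TIMP1 (ENSG00000102265), a secreted inhibitor of most soluble MMPs that also has growth-promoting activity, lies on chromosome X from 47582408 to 47586789 on the plus strand. Its TPM was 203 and 215 in KO, 260 and 239 in SETD2 FL cells, and 432 and 426 in SETD2 C cells. The SETD2 C libraries were far above the rest, and the SETD2 FL libraries stood above KO. TIMP1 rose with SETD2 C by a log2 fold change of 0.89 relative to KO (SE 0.07, adjusted p = 0.00015 from limma), just under 2-fold. It was 1.04 without scaling, past that threshold. Relative to SETD2 FL the log2 fold change was 0.65 (SE 0.07, adjusted p = 0.000493 from limma). Both comparisons passed the adjusted p in all 15 alternatives run for each.

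SETD2 FL relative to KO gave TIMP1 a log2 fold change of 0.24 (95% interval of 0.08 to 0.40, adjusted p = 0.19 from limma). In the first table TIMP1 TPM was 211 and 201 in WT and 186 and 174 in KO, with a log2 fold change of 0.32 (95% interval of 0.06 to 0.59, adjusted p = 0.141 from limma). Without WT library 2 that value was 0.48, and that fit was the 1 of 13 alternatives in which it passed the adjusted p. In the other 12 it did not pass. TIMP1 lies within the span of SYN1 on the opposite strand, whose TPM was 0.16 to 0.88 in the second table, far below that of TIMP1.

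TIMP2 (ENSG00000035862), the inhibitor that also brings pro-MMP2 to MMP14, lies on chromosome 17 from 78852977 to 78925387 on the minus strand. Its TPM was 19.4 and 19.7 in KO, 22.9 and 21.5 in SETD2 FL cells, and 28.2 and 28.4 in SETD2 C cells. As for TIMP1, the SETD2 C libraries were the highest and the groups were separate. TIMP2 rose with SETD2 C by a log2 fold change of 0.38 relative to KO (SE 0.07, adjusted p = 0.0054 from limma), which held at the adjusted p in all 15 alternatives.

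Against SETD2 FL the log2 fold change of TIMP2 was 0.22 (SE 0.07, adjusted p = 0.043 from limma), close to the threshold. TIMP2 no longer passed the adjusted p there in 9 of 15 alternatives. Among them were the fits without KO library 2, KO library 4, SETD2 FL library 4 (log2 fold change of 0.14), SETD2 C library 1 and SETD2 C library 2. Among libraries of the first table, TIMP2 TPM was 13.7 and 14.4 in WT, below 17.6 and 16.9 in KO, with a log2 fold change of -0.16 (95% interval of -0.37 to 0.06, adjusted p = 0.321 from limma).

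TIMP3 (ENSG00000100234), the matrix-bound inhibitor, lies on chromosome 22 from 32801705 to 32863041 on the plus strand. Its TPM was 16.0 and 16.8 in KO, 18.9 and 17.2 in SETD2 FL cells, and 14.5 and 15.2 in SETD2 C cells. The SETD2 C libraries were the lowest of the 6, in contrast to TIMP1 and TIMP2. TIMP3 fell with SETD2 C relative to SETD2 FL, where its log2 fold change was -0.40 (SE 0.08, adjusted p = 0.00764 from limma), which held at the adjusted p in all 15 alternatives. Relative to KO the log2 fold change was -0.29 (SE 0.08, adjusted p = 0.0292 from limma).

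TIMP3 relative to KO no longer passed the adjusted p in 7 of 15 alternatives. Its log2 fold change was -0.14 without scaling (adjusted p = 0.186 from limma). The adjusted p was 0.0593 without KO library 2, 0.128 without KO library 4, 0.115 without SETD2 C library 1 and 0.0807 without SETD2 C library 2, all from limma. SYN3, which spans TIMP3 on the opposite strand, had a TPM of 2.12 and 1.57 in KO and 2.63 and 2.70 with SETD2 C. In the first table TIMP3 TPM was 12.4 and 14.8 in WT and 13.0 and 13.3 in KO, with a log2 fold change of 0.17 (95% interval of -0.03 to 0.36, adjusted p = 0.259 from limma).

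RECK (ENSG00000122707), on chromosome 9 from 36036913 to 36124455 on the plus strand, had a TPM of 7.01 and 6.94 in KO, 7.16 and 6.54 in SETD2 FL cells, and 8.01 and 7.85 in SETD2 C cells. After scaling, the SETD2 C values were close to the rest. The log2 fold change of SETD2 C was 0.03 relative to KO (95% interval of -0.18 to 0.25, adjusted p = 0.795 from limma), 0.17 without scaling and -0.06 under quantile normalization. Compared with SETD2 FL it was 0.08 (95% interval of -0.13 to 0.29). Among libraries of the first table, RECK TPM was 3.80 and 4.14 in WT and 3.20 and 3.29 in KO. WT was higher in both libraries, with a log2 fold change of 0.37 (95% interval of 0.09 to 0.65, adjusted p = 0.116 from limma).

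**Figure D3:**
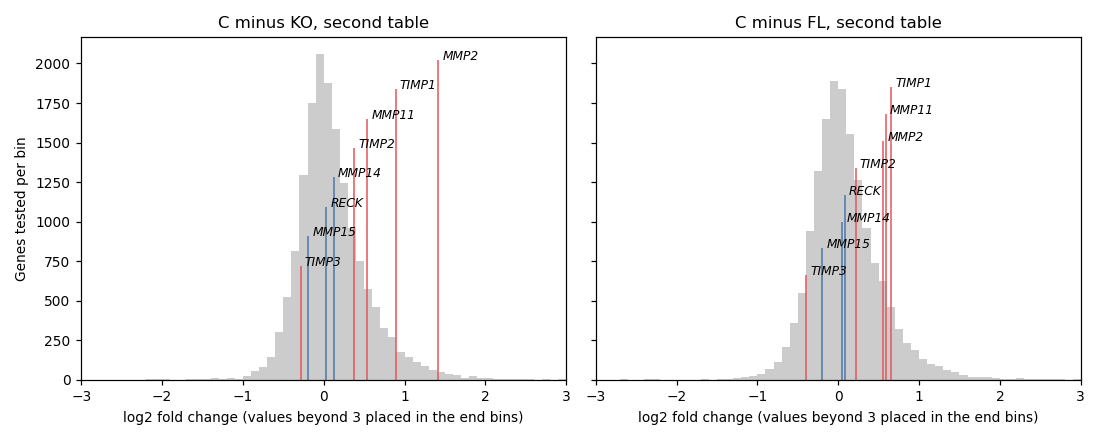
Number of genes tested (vertical axis) by log2 fold change (horizontal axis, bins of 0.1) for SETD2 C relative to KO and to SETD2 FL, with the 8 tested genes marked by lines whose heights carry no value; red lines have an adjusted p of at most 0.05. MMP2 (1.42) and TIMP1 (0.89) lie in the right tail relative to KO, while TIMP3 (-0.29) lies left of the centre.

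Ratios within a library do not depend on the scaling. The ratio of MMP2 to TIMP2 TPM was 0.313 and 0.301 in KO, 0.528 and 0.502 in SETD2 FL cells, and 0.564 and 0.774 in SETD2 C cells. The groups did not overlap, although the first SETD2 C library was close to SETD2 FL. In the first table this ratio was 0.378 and 0.431 in WT and 0.269 and 0.252 in KO, so that it was lowest in KO within each table. The ratio of MMP2 to its activator MMP14 was 3.49 and 3.21 in KO, 6.37 and 5.43 in SETD2 FL cells, and 6.70 and 10.6 in SETD2 C cells. WT (6.82 and 8.41) and KO (7.77 and 7.10) of the first table overlapped in this ratio, unlike in that of MMP2 to TIMP2.

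Among the inhibitors, the ratio of TIMP1 to TIMP3 was 12.6 and 12.8 in KO, 13.8 in both SETD2 FL libraries, and 29.8 and 28.1 with SETD2 C. TIMP1 made up 85.1% and 85.5% of the summed TPM of the 3 TIMPs in KO, and 91.0% and 90.7% with SETD2 C. The summed TIMPs exceeded the summed 5 MMPs 13.9-fold in both KO libraries, 12.4-fold in both SETD2 FL libraries, and 16.1-fold and 13.2-fold in the SETD2 C libraries, which lay on either side of KO. These ratios are given as values and were not tested.

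**Figure D4:**
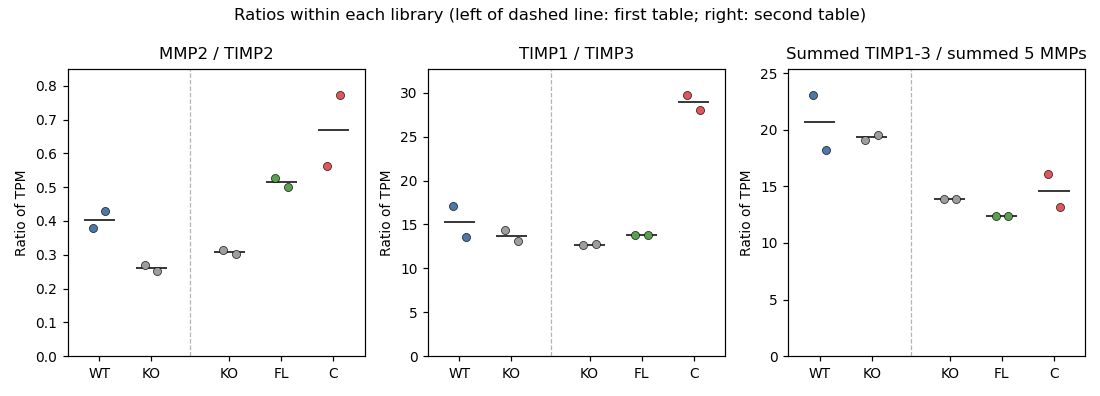
Ratios of TPM within each library (vertical axes, starting at 0) for MMP2 to TIMP2, TIMP1 to TIMP3, and the summed TIMP1, TIMP2 and TIMP3 to the summed 5 MMPs; points are libraries and bars the mean of 2. TIMP1 to TIMP3 is 28.1 and 29.8 with SETD2 C and between 12.6 and 13.8 in the other 4 libraries of the second table.

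The upstream sequences of TIMP1 and MMP11, which rose with SETD2 C, and of TIMP3, which fell, are shown because these genes moved in opposite directions. Sequences came from RefSeq on GRCh38.p14, which gave an entry for 7 of the 9 genes (MMP2 and TIMP2 were not among them). The stretches run from 150 to 31 bases before the RefSeq start, on the plus strand. For MMP11, TIMP1 and MMP14 this start lies inside the GENCODE span given above, downstream of its first base. The stretch shown for TIMP1 ends before the span of TIMP1. The stretch shown for MMP11 lies wholly inside the span of MMP11, which begins at 23768226, and no annotated exon of MMP11 covers it. Capitals mark matches on either strand to the GC box GGGCGG, a known binding sequence of Sp1 factors, and to TGAGTAA, the AP-1-type element known from the TIMP1 promoter.
TIMP1, chrX:47582286-47582405: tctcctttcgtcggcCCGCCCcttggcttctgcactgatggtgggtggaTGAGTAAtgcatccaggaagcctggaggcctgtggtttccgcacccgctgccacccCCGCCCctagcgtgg
MMP11, chr22:23772699-23772818: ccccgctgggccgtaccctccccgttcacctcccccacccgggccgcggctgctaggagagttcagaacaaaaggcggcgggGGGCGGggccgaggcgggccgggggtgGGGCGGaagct
TIMP3, chr22:32801555-32801674: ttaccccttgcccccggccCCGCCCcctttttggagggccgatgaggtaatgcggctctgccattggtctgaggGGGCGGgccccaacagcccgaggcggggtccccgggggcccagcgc

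In the 250 bases before the start, GGGCGG was present in all 7 genes, including TIMP3, RECK and MMP15, and in 42.6% of 35116 promoters. TGAGTAA, which was searched because of TIMP1, was present in TIMP1 alone among the 7 and in 2.21% of promoters. The AP-1 sequence TGANTCA and the TATA box TATAAA were in none of the 7 and in 6.57% and 10.7% of promoters. The share of G and C in these 250 bases ranged from 56.8% in MMP14 to 77.6% in MMP24, and was 64.8% in TIMP1, against a median of 58.0% over all promoters. A match is a description of these letters and not of binding.

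TIMP1 had the smallest p of the 8 genes for SETD2 C relative to KO, and the genes with the most similar log2 values over the 6 libraries of the second table were PMEL (Pearson r = 0.998), ISCA1 (0.998) and RAD51AP1 (0.997). The points share libraries and scaling, and 559 of 13826 genes compared had an r of at least 0.95.

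Other genes that act with these proteases were taken from lists written by hand. Of 18 other MMP genes 8 passed the filter in the second table, and 3 of these (MMP10, MMP12 and MMP13) passed it through the SETD2 C libraries alone, so they had to be higher there and are given as values. MMP12, the macrophage elastase, had a TPM of 0.04 in both KO libraries, 0.1 and 0.12 in SETD2 FL cells, and 1.07 and 0.86 in SETD2 C cells. MMP10, a stromelysin, had a TPM of 0.15 and 0.02 in KO, 0.04 and 0.02 in SETD2 FL cells, and 0.69 and 0.61 in SETD2 C cells. MMP13, a collagenase, had a TPM of 0.13 and 0.05 in KO, 0.17 and 0.15 in SETD2 FL cells, and 0.84 and 0.57 in SETD2 C cells. All 3 were near 0 in KO and SETD2 FL. Of the remaining 5 tested genes, MMP17 and MMP23B rose with SETD2 C relative to KO at the adjusted p and none fell. Over all genes 21.1% rose and 15.1% fell. MMP25, also among the 5, passed the filter through the SETD2 FL libraries alone (0.60 and 0.67). MMP17, a lipid-anchored membrane-type MMP, was better expressed, at a TPM of 3.87 and 4.20 in KO, 5.17 and 5.03 in SETD2 FL cells, and 7.03 and 6.89 in SETD2 C cells, in 3 groups that did not overlap. MMP13 and MMP17 were named after their values were seen, and MMP17 rose by a log2 value of 0.58 relative to KO (adjusted p = 0.00342 from limma). MMP23B has a near-identical copy, so its value is uncertain. TIMP4, the remaining TIMP, did not exceed a TPM of 0.18 in any library and was not tested.

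Of 11 genes that activate pro-MMPs (proprotein convertases, the plasminogen activator system and BSG) 8 were tested, and 3 rose with SETD2 C relative to KO and none fell, as against 36.2% of all genes that passed in either direction. These were the plasminogen activators PLAT and PLAU and the urokinase receptor PLAUR, named after their values were seen, with log2 fold changes of 0.50, 0.86 and 0.35. FURIN and the other tested convertases did not pass the adjusted p there. Set against SETD2 FL the same 3 rose and 2 fell, BSG (a membrane glycoprotein that induces MMPs) and PCSK7. Of all genes 38.2% passed there in either direction. Between WT and KO 2 genes were higher (PCSK6 and PLAT) and none lower, where 4.48% of all genes passed in either direction. PLAT passed both thresholds there, with a TPM of 39.6 and 43.2 against 21.1 and 22.0 (log2 fold change of 1.05, adjusted p = 0.00174 from limma).

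Of 16 tested surface partners and substrates, 3 rose with SETD2 C relative to KO (CAV1, CD44 and FN1) and none fell, where 21.1% of all genes rose and 15.1% fell. Against SETD2 FL 2 rose (CAV1 and FN1) and 2 fell (CDH2 and NOTCH1), where 21.4% of all genes rose and 16.8% fell. FN1, the fibronectin that MMP2 and MMP14 can cut, had a TPM of 23.3 and 21.7 in KO, 27.7 and 20.3 in SETD2 FL cells, and 57.7 and 56.5 in SETD2 C cells. The SETD2 C libraries lay above all others, and the log2 fold change was 1.18 relative to KO (adjusted p = 0.00089 from limma) and 1.12 relative to SETD2 FL (adjusted p = 0.000897 from limma). CD44, the hyaluronan receptor that MMP14 cuts, was the 1 gene of 14 tested that passed between WT and KO, where 4.48% of all genes passed. It was higher in WT, with a TPM of 2.27 and 3.22 against 0.91 and 0.5 (log2 fold change of 1.53, adjusted p = 0.0141 from limma).

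Among 12 tested ADAM and ADAMTS proteases, targets of TIMP3 and RECK among them, 2 rose (ADAM10 and ADAMTS1) and 3 fell (ADAM15, ADAM23 and ADAMTS9) with SETD2 C relative to KO, as against 36.2% of all genes that passed in either direction, with a median log2 fold change of -0.01 against 0.05 over all genes. Of 4 tested genes listed as other inhibitors, PCOLCE and SPINT2 rose and the cysteine protease inhibitor CST3 fell. Over all genes 21.1% rose and 15.1% fell. PCOLCE enhances procollagen processing and is not itself a protease inhibitor. Between WT and KO, PCOLCE and SPINT2 were higher in WT, ADAMTS1 was lower, and no gene of the other MMPs passed. Of all genes 4.48% passed there. With SETD2 FL relative to KO, no gene of these 5 lists passed the adjusted p, where 0.207% of all genes did.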

How the data were processed

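RNA-seq of 10 libraries was used, and 14 ChIP-seq samples were not analysed here. Per the labels and the methods, the authors demultiplexed reads with bcl2fastq 2.18, aligned them to hg38 (Ensembl 96 gene models) with STAR 2.6.1c, and deposited TPM per gene from RSEM 1.3.0, with no normalization between libraries. Strand settings are not given in the sources used here. TPM carries no depth, so counting error could not be given.

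Gene types and positions came from GENCODE 44 on GRCh38, the same assembly; 58472 of 58884 identifiers matched, 31 matched by symbol and 381 did not match. Tests covered protein-coding genes and lncRNAs whose TPM reached 0.5 in 2 or more libraries, which left 14746 in the first table and 15933 in the second. Libraries were scaled by median ratios computed on genes whose TPM was nowhere below 1, and log2(scaled TPM + 0.5) was fitted by lmFit, contrasts.fit and eBayes (with trend) of limma 3.58.1, run in R 4.3.3, with the 6 libraries of the second table in 1 fit and each table on its own. Tests were two-sided, and p-values were adjusted over all genes tested. The genes, lists and tests were chosen with earlier results of these data known. Named genes were the 9 members, SETD2, genes of the lists called at both thresholds, and the 3 genes most similar to the member with the smallest p; others are marked in the text.

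On simulated data for SETD2 C relative to KO (15509 genes), 63 of 98 changes of 0.5 on the log2 scale and 96 of 97 of 1.5 passed the adjusted p, with 13 false calls. The simulated noise was normal and independent between genes. Few genes were changed there, whereas 36.2% of the real genes passed, so these rates need not hold for the data. Alternatives comprised other pseudocounts (0.1 and 1), filters and scalings, no trend, all gene types, only the groups compared, the adjusted p alone, a replicate block, and each library left out.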

Additional observations from a re-analysis of the deposited data

Results flagged for a closer look

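For 5 of the 8 tested genes the effect of SETD2 C differed from that of SETD2 FL, both relative to the shared KO libraries. This is the test of SETD2 C against SETD2 FL in limma. Of all 15933 genes tested, 21.4% were higher and 16.8% lower at the adjusted p there, 38.2% in all, so such a difference was common. The difference was a log2 value of 0.65 for TIMP1, 0.59 for MMP11, 0.56 for MMP2 and 0.22 for TIMP2. It was -0.40 for TIMP3, whose log2 fold change relative to KO was -0.29 for SETD2 C and 0.11 for SETD2 FL (adjusted p = 0.546 from limma), where the scaled KO and SETD2 FL libraries overlapped. The differences of TIMP1 and TIMP3 passed the adjusted p in all alternatives run, and those of MMP2, MMP11 and TIMP2 did not.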

How the results depend on the processing

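No log2 fold change of the 8 tested genes that passed the adjusted p changed sign. MMP2, TIMP1 and TIMP2 relative to KO, and TIMP1 and TIMP3 relative to SETD2 FL, passed the adjusted p under every alternative for SETD2 C. With no filter beyond a TPM above 0, which raises the number of genes tested, the adjusted p from limma was 0.0728 for MMP11 and 0.06 for TIMP3 relative to KO, and 0.0711, 0.057 and 0.0651 for MMP2, MMP11 and TIMP2 relative to SETD2 FL; with eBayes without trend it was 0.0574 for TIMP3 relative to KO and 0.0792 for TIMP2 relative to SETD2 FL. TIMP2 relative to SETD2 FL was at 0.0562 with all gene types and at 0.0591 with only the groups compared. The cause of these losses was otherwise not tested. The median over all genes of unscaled log2 fold changes was 0.18 for SETD2 C relative to KO, 0.16 relative to SETD2 FL and -0.11 for WT relative to KO.

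The number of the 9 genes called for SETD2 C relative to KO, 1 (MMP2), was 2 without scaling (TIMP1 added) and 5 at the adjusted p alone, and relative to SETD2 FL it went from 0 to 5 at the adjusted p alone; leaving out any library gave 1 and 0. Over all genes, WT relative to KO gave 200 calls, SETD2 FL relative to KO 13, SETD2 C relative to KO 647 and SETD2 C relative to SETD2 FL 603. In that order they were 661, 33, 5764 and 6087 at the adjusted p alone. The counts there for the comparisons of SETD2 C were 36.2% and 38.2% of all genes tested. In the same order the calls were 128, 7, 373 and 362 at a pseudocount of 1. They were 83, 6, 301 and 308 when TPM had to reach 1 in every library. A pseudocount of 0.1 gave 1080 and 957 for the comparisons of SETD2 C. No filter gave 73 for WT relative to KO and 3 for SETD2 FL relative to KO, and the latter was 21 without scaling and 6 with all gene types. Leaving out each library gave 123 to 214 for WT relative to KO (fewest without KO library 2) and 2 to 13 for SETD2 FL relative to KO (2 and 3 without KO library 4 or 2, 4 and 6 without SETD2 FL library 3 or 4, 6 without SETD2 C library 1), where a lone library was taken to vary like the other groups. Quantile normalization changed the split of calls from 597 higher and 50 lower to 340 and 130 for SETD2 C relative to KO, and from 536 and 67 to 336 and 124 relative to SETD2 FL.

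WT and KO share the replicate numbers 1 and 2 in the first table. The deviations of the libraries with number 1 had a correlation of 0.147 across genes, and nothing in the labels says that a number marks a shared batch; a fit with the replicate block gave 214 calls over all genes and 0 of the 9 genes. No paired analysis was possible in the second table because its groups share fewer than 2 replicate numbers.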
